A study of Bos taurus with 20 samples.

Results

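The question here was whether neck muscle of treated cows goes through cold storage with the same changes in transcript levels as muscle of control cows. The quantity compared was a difference of differences, the day 14 minus day 0 change in treated muscle minus that change in control muscle, and all 20 arrays of the series entered it. Control cows carry K numbers (K3, K6, K8, K9 and K10) and had no hormone treatment named in the labels. Treated cows carry DE numbers (DE27, DE29, DE30, DE31 and DE32) and received 2 hormones. Each got an oral daily dose of 0.4 mg of dexamethasone (written Dexamethazone in the labels), an artificial glucocorticoid, over 31 days. Each also got 5 mg of the oestrogen estradiol weekly by intramuscular injection, 6 times. Muscle of all animals came from the slaughterhouse and was kept in vacuum packs at 4 °C, and each animal gave 1 array at day 0 and 1 at day 14, so each of the 4 groups held 5 arrays. The labels give neither breed nor age, and the design has no cows given only dexamethasone or only estradiol, so effects of these agents cannot be told apart. The title of 1 treated day 0 sample reads D31; it was taken as animal DE31, the treated animal that had no other day 0 sample. Another label, the free-text sample description, gives D0 for every control and D14 for every treated sample. It goes against the collection day given both in the titles and in the sample characteristics, so it was not used, and every storage value here rests on those 2 labels.

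After slaughter, muscle runs out of oxygen, its glycogen is turned to lactate and the pH falls. During chilled ageing, calpains and other proteases cut proteins of the Z-disc and the surrounding cytoskeleton, which tenderises meat, while calpastatin, the inhibitor of calpains, slows this. Dexamethasone binds the glucocorticoid receptor, which drives genes such as PER1, FKBP5 and KLF9 and promotes muscle protein breakdown through ubiquitin ligases such as FBXO32 and TRIM63. Transcript levels in stored meat reflect RNA that is left as well as any RNA still made, and a level on an array is relative to the other RNA in the same sample.

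Values are log2 signals scaled to the 75th percentile of each array, so a change of 1 is a doubling relative to that percentile. The 75th percentile itself was lower after storage, by 0.93 ± 0.50 (SD, n = 5) in control and by 1.12 ± 0.29 in treated animals on the log2 scale. These falls differed by less than their spread between animals (two-sided exact permutation p = 0.508, adjusted p = 0.857 over 3 measures of array signal). Of the 10 skeletal muscle markers set for checking the tissue, 9 had a tested probe and all 9 were well above background on every array; MYH2 had no named probe. No pair of arrays held the same values, with correlations across probes between 0.912 and 0.986.

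Storage changes of K10 and DE27 stood apart from those of the other animals. The change of each animal across 15427 probes was correlated with the mean change of the other 9. Pearson's r was 0.232 for DE27 and 0.491 for K10, and between 0.674 and 0.818 for the other 8 animals. The day 0 arrays of DE27 and K10 were on the same slide (slide 6, which made up scan session 3), together with the day 14 arrays of K3 and K8; the part of the slide in these values was not tested. Among the 8 other animals, r had a median of 0.631 over the 16 pairs between treatments, 0.649 over the 6 pairs within control and 0.637 over the 6 pairs within treated animals. These correlations share probes and arrays and are a description. The main counts of probes are therefore also given without K10 and DE27, and counts in gene lists where leaving them out moves a count by over 1.5 times.

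**Figure D1:**
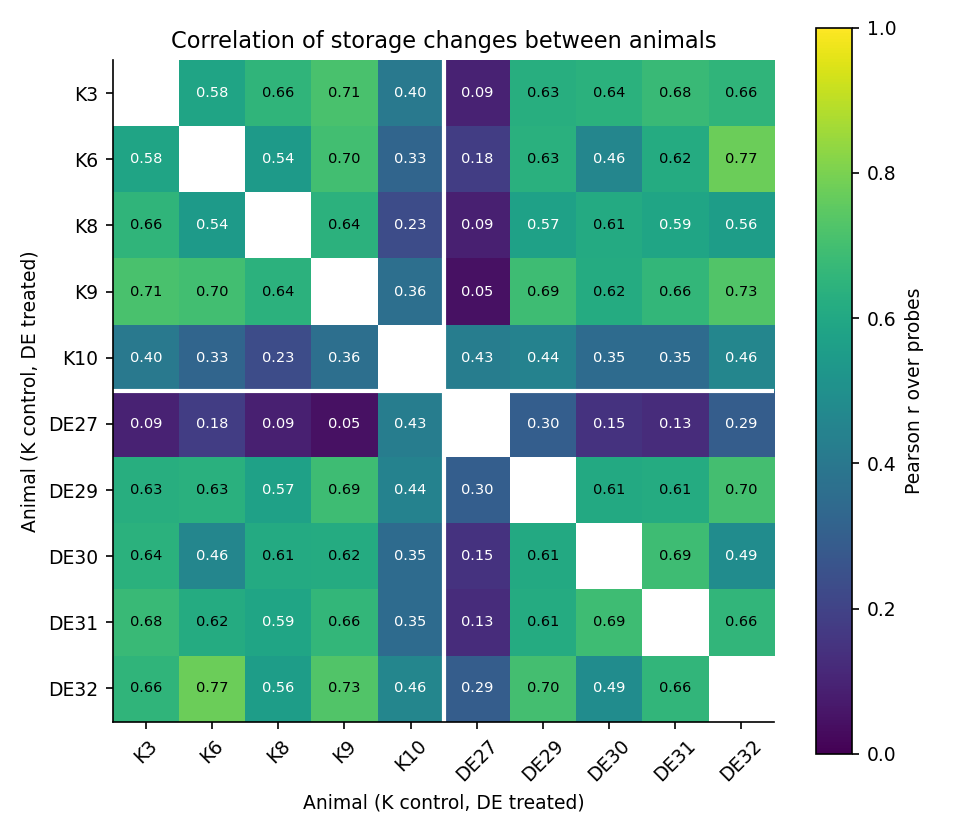
Pearson correlation over 15427 probes between the storage changes (day 14 minus day 0, log2) of each pair of animals; both axes list the 5 control (K) and 5 treated (DE) animals and colour gives r. The rows of DE27 and K10 are the darkest, and pairs between treatments reach 0.77.

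No transcript passed the test for a treatment difference in its storage change. Of 15437 probes tested with limma and Benjamini-Hochberg adjustment, 0 were called higher (0.0%) and 0 lower (0.0%), the smallest adjusted p being 0.999. At an unadjusted p under 0.05 there were 534 probes (3.46%), of which 393 (2.55%) had a higher day 14 minus day 0 value in treated muscle and 141 (0.913%) a lower one. With no difference at any probe, a threshold of 0.05 would on average pass a larger share than 3.46%. Without K10 and DE27, 0 probes passed and 652 had an unadjusted p under 0.05. The unadjusted 95% interval of the difference reached a median of 0.75 to either side, a 1.68-fold change, and for 48.9% of probes it lay wholly within 1 log2 unit, a 2-fold difference, of no difference. These intervals take no account of the number of probes, so a difference had to be larger than this to pass the adjusted test with 5 animals per treatment.

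Storage itself changed 38.5% of the tested probes in control and 34.5% in treated muscle. In control muscle 3244 probes rose (21.0%) and 2696 fell (17.5%), and in treated muscle 3167 rose (20.5%) and 2158 fell (14.0%). The control and treated changes come from different animals and arrays, but every slide that held arrays of only 1 day held both treatments. The part of the slides in the likeness of these changes was not tested. Of the 3244 probes that rose in control muscle, 99.2% lay above 0 in treated muscle and 68.1% rose there too; of the 2696 that fell, 98.7% lay below 0 and 66.3% fell. None of these 5940 probes was called in the opposite direction in treated muscle. Probes that rose in control had a median change of 1.003 in control and 0.89 in treated muscle, and those that fell had -0.91 and -0.74. Read from the treated side, the 3167 risers had a median of 1.05 in treated and 0.85 in control muscle, and the 2158 fallers had -0.89 and -0.90. In 3 of these 4 sets the treatment that did not choose the probes had the smaller change. Across all tested probes the changes correlated with r = 0.845 (Spearman's rho 0.844), a description over probes, which are not independent and share array scaling and slides.

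These storage counts are tied to the slides, since 4 of the 6 slides held arrays of only 1 day. With slide as a block the counts fell to 1318 in control and 905 in treated muscle; the difference between treatments had 0 calls with that block as well. The balance of rises and falls also depends on the scaling. Averaged over treatments, 8397 probes were called (54.4%), 4811 higher (31.2%) and 3586 lower (23.2%), so 57.3% of calls were rises. With quantile normalization 47.7% of calls were rises, with median scaling 31.7%, with background correction by normexp 75.9% and with the values of the authors' deposited series table it was 47.4%. The median storage change over all probes was 0.10, -0.02, -0.21, 0.47 and -0.02 under these settings, so rises and falls here are relative to the array's 75th percentile. Without K10 and DE27, 6952 probes were called in control and 6385 in treated muscle, and 9243 for the mean over treatments.

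A storage change was counted as kept when its mean over treatments passed the test, its sign was the same in control and treated muscle and the 95% interval of the difference lay within 1 log2 unit. This held for 4365 probes (28.3% of those tested), 2146 that rose and 2219 that fell, and for 4513 probes without K10 and DE27. The other 4032 probes with a called mean change had intervals that reached beyond 1 log2 unit or, for 11 of them, opposite signs. Of the 4365 kept probes, 759 had a mean change of at least 2-fold. For the rest the margin was wider than the mean change, so kept does not mean that its size was the same. With a margin of 0.5 in place of 1, 223 probes were kept. Probes with no gene name made up 26.96% of those that rose and 14.1% of those that fell, against 19.9% of all tested probes.

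**Figure D2:**
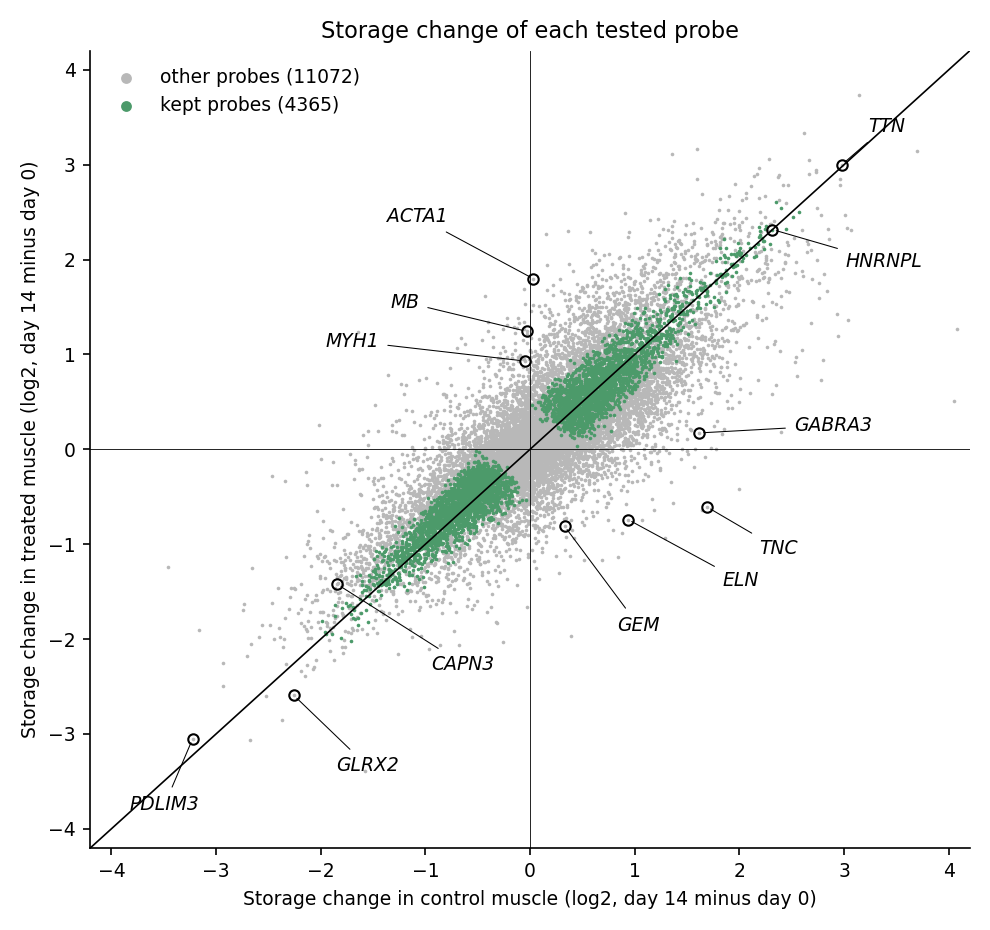
Storage change (log2, day 14 minus day 0) of each of the 15437 tested probes in control muscle (x axis) and in treated muscle (y axis); green points are the 4365 kept probes, the diagonal marks equal change and circles mark named genes. Most points lie along the diagonal (r = 0.845); MB, ACTA1 and MYH1 lie above it near 0 on the x axis, and TNC, GABRA3, ELN and GEM below it.

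The largest rises over storage were seen in both treatments. These genes were chosen on the mean over treatments, so a rise in both is largely set by that choice. A probe for HNRNPL, a splicing regulator, rose by 2.23, 3.06, 2.04, 2.41 and 1.83 in the control animals K3, K6, K8, K9 and K10. In the treated animals DE27, DE29, DE30, DE31 and DE32 it rose by 1.52, 2.34, 1.79, 3.34 and 2.59. The ranges overlap, and the difference was 0.00 ± 0.34 (SE, 95% interval -0.71 to 0.71). PLA2G2D1, of the secreted phospholipase A2 family, rose by 2.19 ± 0.22 (SE) in control and 2.26 ± 0.22 in treated muscle and was also kept. The brighter probe for TTN, which encodes the giant sarcomere spring titin, had the largest mean rise of all named genes. Its changes per animal were 4.01, 2.85, 1.12, 2.93 and 3.98 in control and 2.10, 2.70, 2.73, 3.91 and 3.56 in treated animals. The mean difference of 0.02 ± 0.57 had an interval of -1.17 to 1.21, too wide for the kept class. The dimmer TTN probe gave -1.28 in control and 0.30 in treated muscle, so the probes of this gene disagree. A second HNRNPL probe likewise showed 0.19 and 0.17. Over the 10 genes with the largest mean rises (2.22 to 2.99), the difference between treatments ran from -0.69 to 1.25.

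The largest falls were also seen in both treatments, which the choice on the mean over treatments again largely sets. PDLIM3, a Z-disc protein that binds alpha-actinin, gave changes of -2.96, -3.91, -3.38, -4.86 and -1.004 in control and of -2.02, -4.88, -1.38, -2.67 and -4.32 in treated animals. It fell in all 10 animals, least in K10, and the difference was 0.17 ± 0.82. GLRX2, a mitochondrial glutaredoxin, fell by 2.26 ± 0.25 in control and by 2.59 ± 0.25 in treated muscle (difference -0.34 ± 0.36). UBE2D1, a ubiquitin-conjugating enzyme, fell by 2.71 ± 0.47 and by 2.18 ± 0.47. Among the 10 genes with the largest mean falls (-3.14 to -2.19), LOC514503 had the largest difference, 2.22 ± 1.02, with -3.46 in control and -1.24 in treated muscle. DE27 rose by 3.20 where the other treated animals had values between -2.93 and -1.92. K10 hardly changed, with a level of 8.34 at day 0 and 8.22 at day 14. These animals move the difference in opposite directions: it was 1.11 without DE27 and 3.05 without K10.

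Among transcripts with a higher day 14 minus day 0 value in treated muscle, the smallest p belonged to MB, which encodes myoglobin, the oxygen-binding protein that colours meat. In the control animals, in the order given above, MB gave changes of -0.39, -0.25, 0.23, 0.46 and -0.21. In the treated animals it rose by 1.36, 1.12, 1.64, 1.12 and 0.98, and the groups do not overlap. The mean change was -0.03 ± 0.18 (SE) in control and 1.24 ± 0.18 in treated muscle, a difference of 1.28 ± 0.26 (unadjusted p = 8.26e-05, adjusted p = 0.999), so it did not pass. All 24 alternative settings gave a difference above 0, from 0.75 in the series table to 1.40. Before scaling to the 75th percentile, MB in control animals gave a mean of -0.965 with an SD of 0.519, and MB in treated animals 0.123 with an SD of 0.467 (n = 5). The MB probe was saturated on 2 of 20 arrays (DE29 at day 0 and DE27 at day 14); the part of saturation in its difference was not tested.

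ACTA1, the alpha-actin of skeletal muscle thin filaments, showed more spread between animals. Its control changes were -1.55, 1.001, 0.01, 0.39 and 0.31 and its treated changes 2.43, 2.31, 0.98, 2.09 and 1.18. K6 overlaps the lowest treated animal, DE30, and the difference of 1.77 ± 0.51 had an adjusted p of 0.999. Within session 1 the ACTA1 difference was 0.95. SLC13A2, a dicarboxylate transporter, and TET1, a DNA demethylase, gave non-overlapping groups with differences of 0.85 ± 0.24 and 1.29 ± 0.38; that of SLC13A2 was 0.48 with normexp and that of TET1 0.78 within session 2. NRL, a transcription factor known from photoreceptors, rose in both treatments, by 0.73 ± 0.19 in control and 1.65 ± 0.19 in treated muscle, and its difference of 0.92 was 0.46 with normexp. The other genes of this set were TTC17, MAFG, SEC14L4, REV1 and FSD2. Of the 10 genes, the difference of 8 moved by over 1.5 times under at least 1 of the alternatives, 5 of them with normexp, and none turned sign. Across all probes the smallest adjusted p of the difference over all settings was 0.318, with slide as a block.

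Among transcripts with a lower day 14 minus day 0 value in treated muscle, TNC had the largest difference of the 10 genes with the smallest p. TNC encodes tenascin-C, a matrix glycoprotein made during tissue repair. Its changes were 1.90, 2.02, 1.27, 2.27 and 0.99 in control and -1.28, 0.04, -1.43, -1.20 and 0.83 in treated animals, with no overlap. The rise of 1.69 ± 0.49 in control muscle passed (adjusted p = 0.011), the treated change of -0.61 ± 0.49 did not, and the difference of -2.30 ± 0.69 had an unadjusted p of 0.00335 and an adjusted p of 0.999. The scaled level of TNC lay between 4.47 and 7.93, and with normexp background correction the difference was -0.76. GEM, a small GTPase that inhibits calcium channels, gave changes of 0.03, 1.22, 0.25, 0.34 and -0.19 in control and -0.71, -0.83, -1.44, -0.96 and -0.12 in treated animals. Treated DE32 lies above control K10, and the difference was -1.14 ± 0.34. GABRA3, a GABA receptor subunit, rose by 1.62 ± 0.31 in control against 0.17 ± 0.31 in treated muscle, but the difference of -1.45 became -0.18 with normexp. CD44, a hyaluronan receptor, differed by -1.11 ± 0.39, by -0.49 with normexp and by -2.24 within session 1. The remaining genes of the set were MIPEP, GAS2L1, ABHD3, CHKB, WDR19 and PXDC1. In this set too the difference of 8 of 10 genes moved by over 1.5 times under some alternative and none turned sign. Treated changes lay all above control changes for 70 probes (0.453% of those tested) and all below for 14 (0.0907%).

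**Figure D3:**
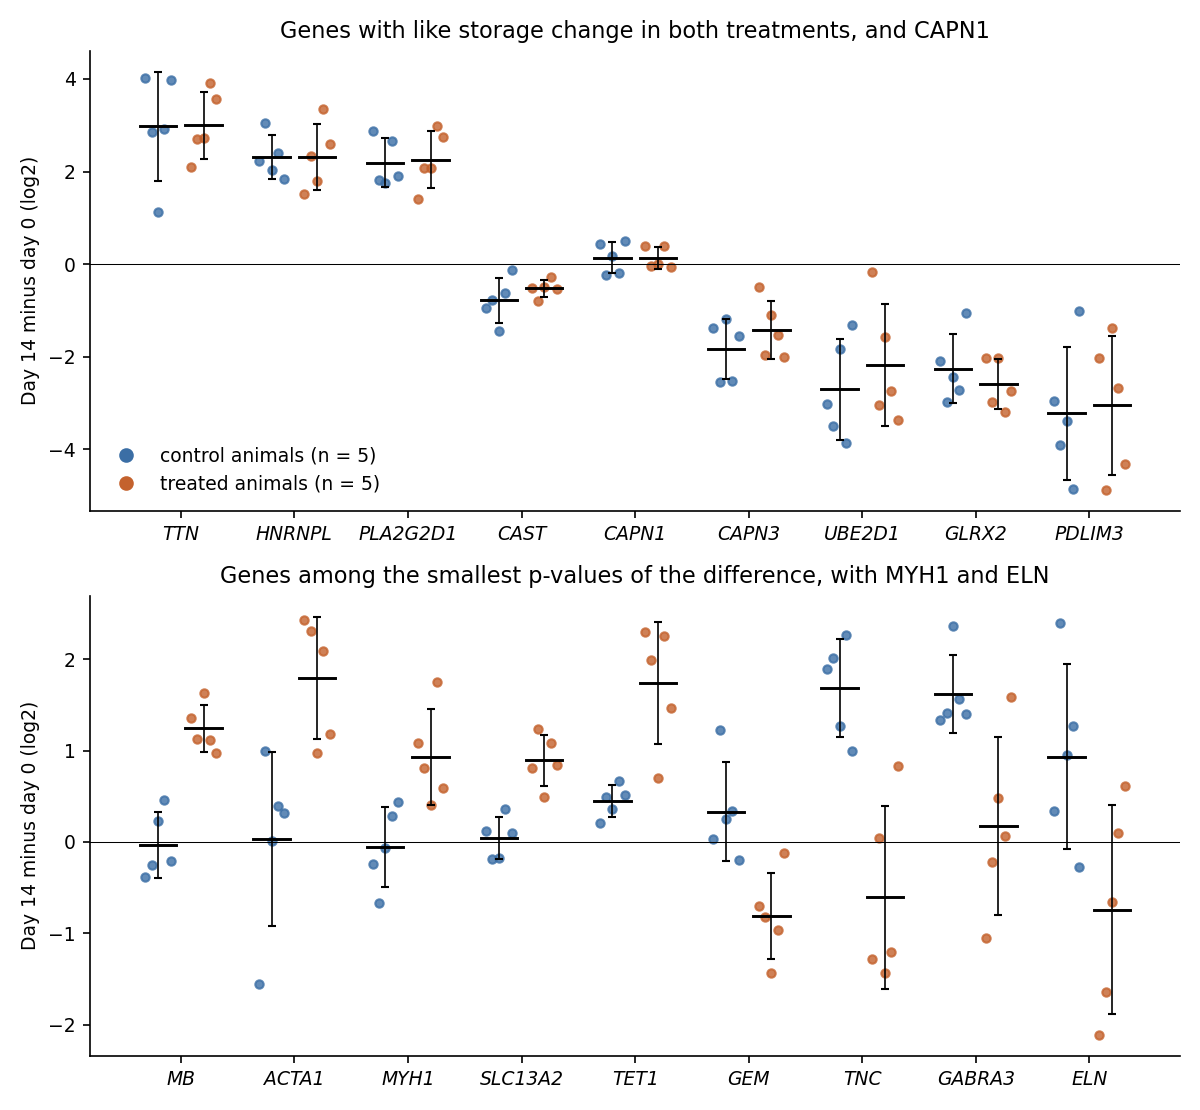
Storage change (log2, day 14 minus day 0) of each control and treated animal for 18 genes; points are animals, bars are the mean and SD of 5 animals. In the upper panel the treatments overlap for every gene, and in the lower panel MB, SLC13A2, TET1 and TNC do not overlap.

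Averaged over days, 439 probes were higher in treated muscle (2.84% of those tested) and 533 lower (3.45%), 972 in all against 661 without K10 and DE27. They were chosen on the mean over days, so a difference of the same sign at each day is largely set by that choice. The 439 higher probes had a median treatment difference of 0.83 at day 0 and 0.71 at day 14, and the 533 lower probes had -0.72 and -0.75. The mean over days does not enter the difference in storage change, so the choice of these probes does not set it: its median was -0.09 in the higher and 0.01 in the lower probes, against 0.04 over all tested probes. At an unadjusted p under 0.05 the difference was found in 2.96% of the higher and 3.38% of the lower probes, against 3.46% of all.

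PER1, a circadian clock gene that glucocorticoids induce, was the clearest case. Its level at day 0 was 14.82, 14.55, 15.11, 15.19 and 15.35 in control and 11.59, 12.40, 12.04, 12.33 and 12.20 in treated animals. At day 14 it was 15.70, 15.27, 15.38, 16 and 15.52 in control and 11.82, 12.00, 12.56, 13.76 and 12.94 in treated animals. The groups are far apart on both days, PER1 being lower in treated muscle by 2.92 ± 0.20 (SE, adjusted p = 1.26e-07). Its storage change was 0.57 ± 0.29 in control and 0.51 ± 0.29 in treated muscle, and it was kept, with a difference of -0.06 ± 0.41 (interval -0.91 to 0.79). CYP1A1, an enzyme that metabolises foreign compounds, was lower in treated muscle by 3.91 ± 0.45, and RGS1, a regulator of G-protein signalling, by 3.48 ± 0.33. Their differences in storage change were -0.24 ± 0.90 and -0.36 ± 0.67, with intervals from -2.13 to 1.65 and from -1.75 to 1.03.

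Among genes higher in treated muscle, IDO1, which degrades tryptophan and is induced by interferon-gamma, had levels of 5.23, 6.56, 5.53, 7.16 and 6.04 in control and 9.12, 7.98, 8.45, 8.62 and 8.17 in treated animals at day 0. At day 14 the levels were 6.05, 7.03, 8.03, 6.92 and 7.48 in control and 10.33, 8.92, 8.95, 9.69 and 8.96 in treated animals. Every treated animal lay above every control animal on each day, and the storage change was 0.999 ± 0.389 in control and 0.90 ± 0.39 in treated muscle. The chemokine CCL2 was higher by 3.03 ± 0.42 and the lipid synthesis enzyme DGAT2 by 2.44 ± 0.42, with differences in storage change of -0.86 ± 0.84 and -0.93 ± 0.84. For CCL2 this was -0.33 without K8 and -2.17 within session 1, and for DGAT2 it turned sign between the sessions, with 1.82 in session 1 and -2.30 in session 2. FBXO32, the muscle ubiquitin ligase atrogin-1, was higher by 1.30 ± 0.16 and its storage changes were 0.21 ± 0.23 and 0.50 ± 0.23. Over the 10 genes most higher in treated muscle the difference in storage change ran from -1.77 (ARG2) to 0.64 (ANGPTL4), and over the 10 most lower from -0.36 (RGS1) to 1.001 (FKBP5). FKBP5, a chaperone partner of the glucocorticoid receptor, had changes of 3.60 in K10 and 3.58 in DE27 and between -2.49 and 0.28 in the other 8 animals. Among the alternatives the FKBP5 difference was highest without K10, at 1.98, and lowest within session 1, at -0.42. The smallest unadjusted p among these 20 was 0.128, and for 18 of them the difference turned sign under at least 1 alternative, for 11 of them when a single animal was left out.

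GADD45A, a growth arrest gene, was a case in which the day 0 difference was smaller at day 14. Its levels were 12.73, 11.35, 13.04, 13.48 and 14.20 in control and 10.71, 10.15, 10.46, 9.88 and 12.25 in treated animals at day 0, with treated DE32 above control K6. At day 14 they were 12.09, 10.46, 10.34, 11.25 and 12.31 in control and 9.97, 10.46, 10.77, 10.43 and 11.27 in treated animals, so the groups overlap on both days. It fell by 1.67 ± 0.51 over storage in control muscle (adjusted p = 0.015) and gave -0.11 ± 0.51 in treated muscle. The difference of 1.56 ± 0.72 had an unadjusted p of 0.0424 and did not pass.

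**Figure D4:**
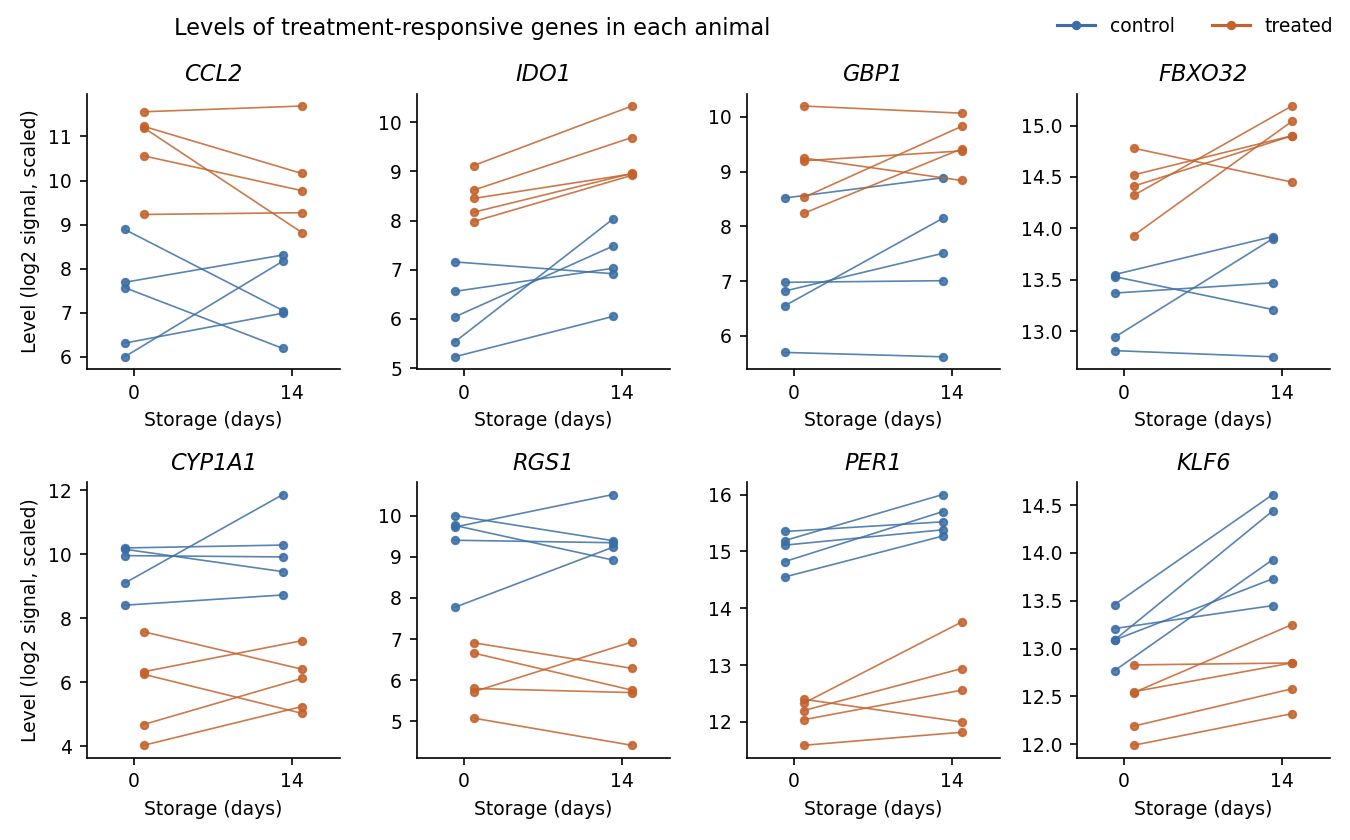
Scaled log2 signal of 8 genes that differ between treatments on average, at day 0 and day 14 (x axis); each line joins both arrays of 1 animal, 5 control and 5 treated. Levels of the treatments stay apart at both days for PER1, IDO1, CYP1A1, RGS1, CCL2 and FBXO32, while those of KLF6 overlap at day 0 and those of GBP1 at both days.

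Gene functions were followed with 35 lists, each described by the median of its members' values. In 30 of them the median storage change had the same sign in control and treated muscle, and the medians of the lists correlated with r = 0.792 between treatments. The median difference ran from -0.78 to 0.64 and was within 0.25 of 0 in 26 lists, against 0.02 over all 11405 genes tested. In no list did the 5 treated animals' medians lie apart from the 5 control animals' medians. In 12 lists the sign of the median difference differed between scan sessions 1 and 2, the sessions that hold all 4 groups. As no gene passed the test of the difference, the counts below are of storage calls in each treatment, with those over all genes as background: 17.9% rose and 19.1% fell in control muscle, 16.9% rose and 15.5% fell in treated muscle, and 28.9% were kept. Over both days, 2.82% of all genes were higher and 3.16% lower in treated muscle. The genes ND1, COX3, PSMD14, UBB, HSP90AB1, DNAJB6, SOD1, NFIL3, HERC6, LUM, FN1, TIE1 and TNNC1 below were chosen as examples after their values were seen.

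**Figure D5:**
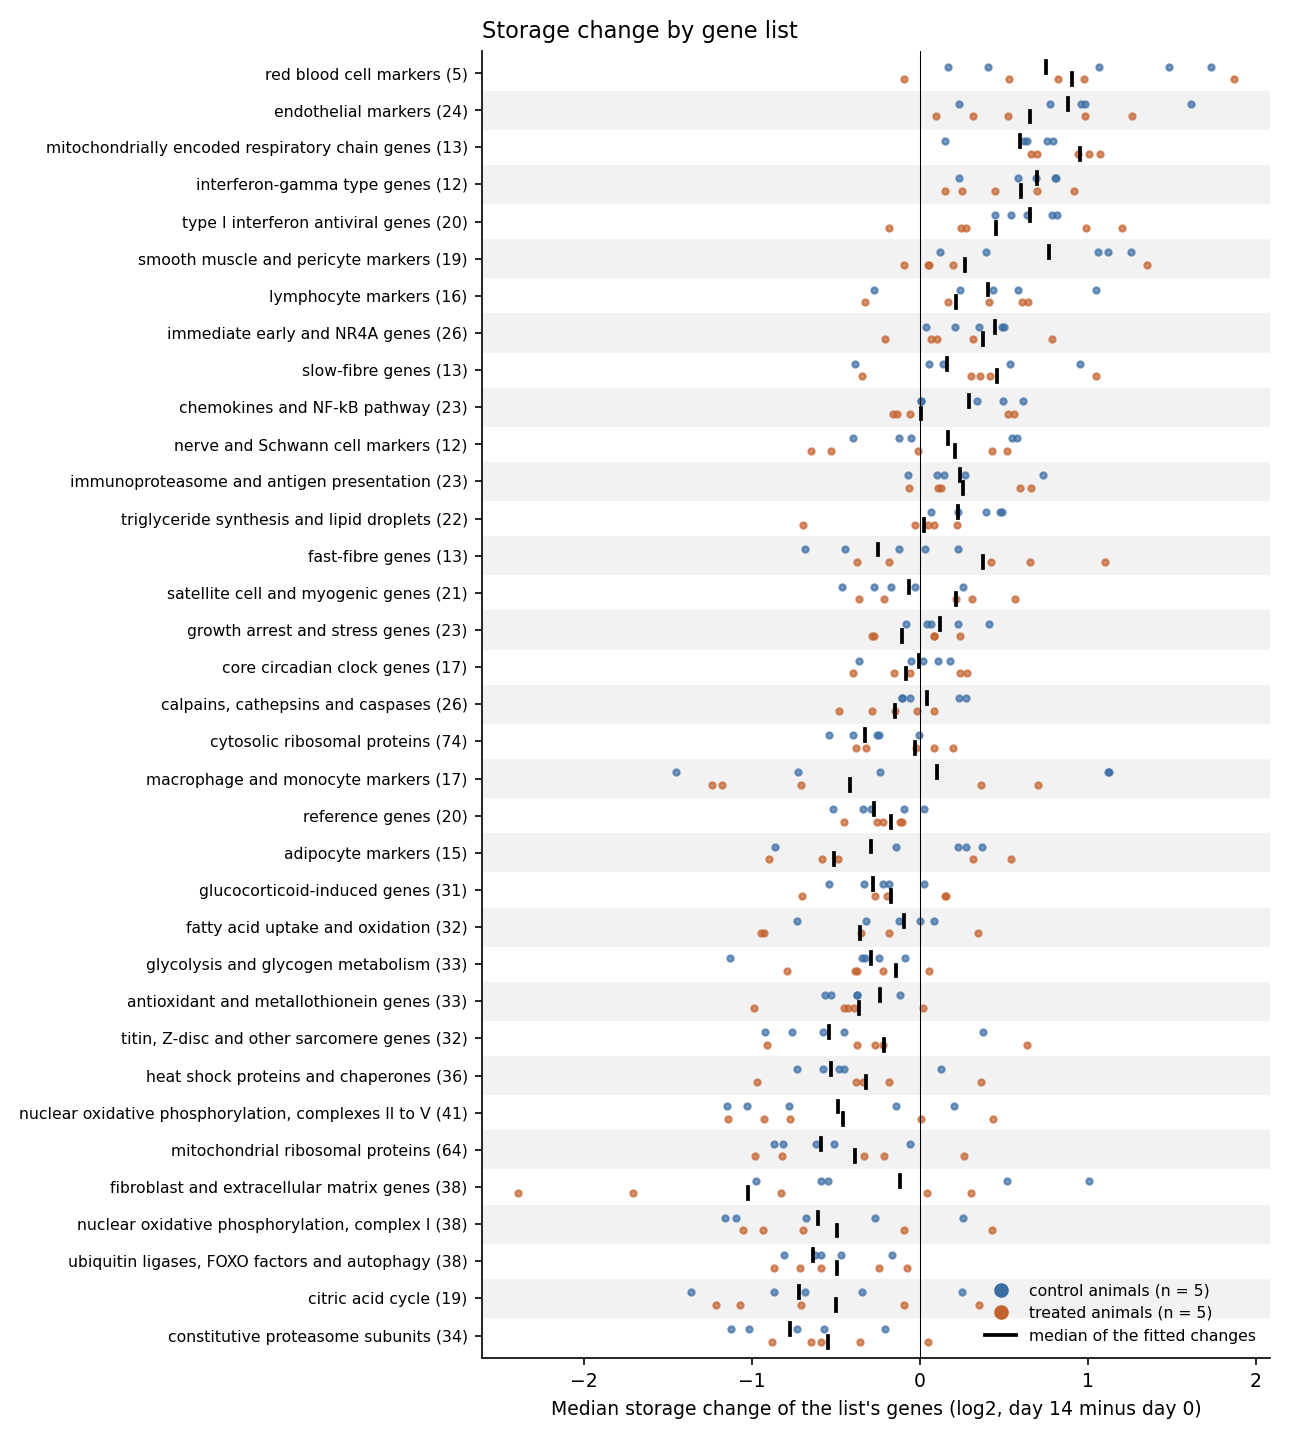
Median storage change (log2, day 14 minus day 0) of 35 gene lists, with the number of tested genes in brackets; points are animals and black ticks the median of the fitted changes in control (upper) and treated (lower) muscle. The fibroblast and fast-fibre lists show the widest gaps between ticks, and the animals' points overlap in every list.

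Of 38 nuclear-encoded subunits of complex I, the first enzyme of the respiratory chain, 16 fell in control and 11 in treated muscle and none rose. Their median change was -0.61 in control and -0.49 in treated muscle, and 12 were kept. Of 41 subunits of complexes II to V, 16 fell and 2 rose in control and 12 fell and 2 rose in treated muscle, with medians of -0.49 and -0.46. Without K10 and DE27, 20 complex I genes and 22 of complexes II to V fell in treated muscle, and 1 of complexes II to V rose there. Of 64 mitochondrial ribosomal proteins, 30 fell in control and 21 in treated muscle, with medians of -0.59 and -0.39, and 21 were kept. In complex I the animals' medians lay between -1.16 and -0.09, except in K10 (0.25) and DE27 (0.43), and for complexes II to V they were above 0 in K10 (0.20), DE27 (0.43) and DE30 (0.01). The complex I median difference of 0.08 became -0.17 without DE27. It was 0.87 within session 1 and -0.25 within session 2. The respiratory chain genes encoded in mitochondrial DNA had medians above 0 under all 5 scalings. Their median was 0.60 in control and 0.95 in treated muscle, 6 of 13 rose in control and 12 of 13 in treated muscle, and none fell. ND1 rose by 0.87 ± 0.24 and 0.92 ± 0.24, COX3 by 0.60 ± 0.18 and 1.03 ± 0.18, and 7 of the 13 were kept. Their median difference of 0.35 was 0.08 within session 1, 0.38 within session 2 and 0.04 at the lowest under another scaling.

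Lists of protein breakdown genes differed in their storage changes. Of 34 constitutive proteasome subunits, 21 fell in control and 15 in treated muscle, with medians of -0.77 and -0.55, and 14 were kept. PSMD14, a deubiquitinase of the proteasome lid, fell by 1.50 ± 0.26 and by 1.43 ± 0.26 (difference 0.07 ± 0.37). PSMA7, a subunit of the proteolytic core, was the 1 subunit that rose, by 1.63 ± 0.25 in control and 2.33 ± 0.25 in treated muscle. In the list of ubiquitin ligases, FOXO factors and autophagy genes, 20 of 38 fell in control and 17 in treated muscle, 3 rose in each treatment, and 13 were kept, among them the polyubiquitin gene UBB with falls of 1.37 ± 0.20 and 1.38 ± 0.20. Of 26 calpains, cathepsins and caspases, 4 fell and 2 rose in control and 5 fell and 1 rose in treated muscle. Without K10 and DE27, 4 of this list rose in control and 2 in treated muscle. Cytosolic ribosomal proteins had a median of -0.33 in control and -0.03 in treated muscle, the latter 0.01 in the series table; 20 of 74 fell in control, 33 without K10 and DE27, and 9 in treated muscle, and 21 were kept. Of these 74 genes, 62 had a difference above 0, with a median of 0.24, against 53.0% of all genes. Without DE27 this median was 0.13, and under other scalings it lay between 0.06 and 0.23.

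Of 36 heat shock and chaperone genes, 14 were kept, such as HSP90AB1, which fell by 1.03 ± 0.27 and by 0.99 ± 0.27, and DNAJB6, which rose by 0.67 ± 0.17 and 0.68 ± 0.17. Of 33 antioxidant and metallothionein genes, 12 were kept, among them the superoxide dismutase SOD1 with falls of 1.41 ± 0.23 and 1.30 ± 0.23. In the core circadian list 7 of 17 were kept, and NFIL3, a repressor in the clock, fell by 1.81 ± 0.25 and by 1.99 ± 0.25. Type I interferon genes had medians of 0.65 and 0.45; 7 of 20 rose in control and 4 in treated muscle (9 without K10 and DE27), and 7 were kept. The antiviral gene HERC6 rose by 1.66 ± 0.30 in control and 1.76 ± 0.30 in treated muscle. In that list 13 of 20 genes were higher in treated muscle over both days, 6 without K10 and DE27, and 0 had an unadjusted p under 0.05 for the difference in storage change. Of the 20 genes, 16 were well above background on at least 3 arrays of each group. A gene could be tested through its treated arrays alone, so the filter can have a part in the count of genes higher in treated muscle.

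The glucocorticoid-induced list had a median treatment difference of -0.84 over both days, with 14 of 31 genes lower in treated muscle, 9 without K10 and DE27, and 2 higher. Its median storage changes were -0.28 in control and -0.17 in treated muscle. BCL6, a transcriptional repressor, differed by 1.06 ± 0.42, but by -0.57 within session 1. A second, dimmer BCL6 probe had a difference of 0.15 ± 0.49. SGK1, a kinase induced by glucocorticoids, differed by -1.31 ± 0.53 and by -0.74 within session 1. A second, dimmer SGK1 probe had a difference of 0.74 ± 0.40, of opposite sign. KLF9, a transcription factor, fell by 0.59 ± 0.21 in control and by 0.80 ± 0.21 in treated muscle and was kept. Neither hormone receptor passed a test of storage change. NR3C1, the glucocorticoid receptor, gave -0.15 ± 0.19 and 0.15 ± 0.19 in control and treated muscle, and ESR1, the oestrogen receptor alpha, -0.51 ± 0.33 in each.

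Fast-fibre contractile genes were the list with the largest positive difference. All 13 tested fast-fibre genes had a difference above 0, with a median storage change of -0.25 in control and 0.38 in treated muscle and a median difference of 0.64; 1 of them, MYH1, had an unadjusted p under 0.05, as 2.32% of all genes did with a difference above 0. MYH1, a fast myosin heavy chain, gave changes of -0.24, -0.67, -0.06, 0.28 and 0.44 in control and 1.08, 0.81, 0.41, 1.76 and 0.59 in treated animals. K10 overlaps DE30, and the difference was 0.98 ± 0.32. A dimmer MYH1 probe gave -1.63 and -0.47, with a difference of 1.16 ± 0.62. The animals' medians over the list were 0.03, -0.12, -0.45, -0.68 and 0.22 in control and 0.42, -0.38, 0.66, 1.1 and -0.18 in treated animals, which overlap. The median difference was 0.08 within session 1 and 0.71 within session 2, was 0.31 without K9, and lay between 0.38 and 0.60 under the other scalings. With quantile normalization the treated median itself was -0.10. Slow-fibre genes had a median difference of 0.10, with 7 of 13 above 0, and of -0.15 to 0.12 under other scalings. It turned to -0.29 without DE27 and to -0.18 with session as a block. MYH7, the slow myosin heavy chain, gave 0.41 ± 0.16 in control and rose by 0.74 ± 0.16 in treated muscle and was kept. The probe of TNNC1, the slow troponin C, was saturated on 3 arrays.

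Fibroblast and extracellular matrix genes were the list with the largest negative difference. The median storage change was -0.12 in control and -1.02 in treated muscle; 4 of 38 fell in control and 13 in treated muscle (7 without K10 and DE27), and 37 of 38 had a difference below 0, with a median of -0.78, against 47.0% of all genes below 0. Of the 38, 5 had an unadjusted p under 0.05 with a difference below 0, against 0.982% of all genes. LUM, the collagen-binding lumican, fell by 1.26 ± 0.48 and by 2.15 ± 0.48, and FN1, fibronectin, gave -0.46 ± 0.40 in control and fell by 1.29 ± 0.40 in treated muscle. ELN, elastin, gave changes of 0.34, 2.39, 0.96, 1.27 and -0.28 in control and -2.11, -1.64, -0.66, 0.09 and 0.62 in treated animals, which overlap, and BGN, biglycan, differed by -1.29 ± 0.52. The animals' medians over the list were -0.59, 1.01, -0.98, 0.52 and -0.55 in control and -2.39, -1.71, -0.83, 0.04 and 0.31 in treated animals, with K6 and K9 highest and DE27 and DE29 lowest. The median difference was -2.77 within session 1, which holds only K6 for control day 14 and DE29 for treated day 0, and 0.23 within session 2. Without DE27 it was -0.35 and without K6 -0.47. The mean level of the list lay between 9.44 and 10.41 in control and between 9.28 and 10.44 in treated muscle at day 0, and between 9.12 and 10.57 and between 7.93 and 9.71 at day 14. In bulk tissue fewer cells of a type and less RNA per cell cannot be told apart, and the part of the connective tissue content of each piece in these values was not tested.

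Markers of some other cell types also had negative median differences. Smooth muscle and pericyte markers had a median difference of -0.54, with 9 of 19 rising in control and 1 in treated muscle; it was -1.35 within session 1 and -0.01 within session 2. Macrophage markers differed by a median of -0.44, with 16 of 17 below 0, against 47.0% of all genes. This median was -0.76 without DE32 and -0.24 without DE27, -1.63 and -0.17 within the sessions, and -0.00 with normexp. Their mean level per array overlapped between the treatments on each day, from 6.52 to 8.16 in control and from 6.51 to 8.03 in treated muscle over both days. Adipocyte markers, of which 9 of 15 were measured in every group, differed by -0.37, by -0.66 without K10, by -0.20 without DE31 and by -0.11 with normexp. Of 24 endothelial markers, 14 rose in control and 6 in treated muscle, 16 in treated muscle without K10 and DE27, with medians of 0.88 and 0.66 and none falling. TIE1, an endothelial receptor kinase, rose by 1.17 ± 0.31 and 1.18 ± 0.31. Lymphocyte, nerve, red blood cell and satellite cell lists had median differences between -0.12 and 0.02, each of either sign under some scaling, and 10 of the 29 lymphocyte markers, CD3D and MS4A1 among them, were on the array but too dim to be tested.

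Of the genes tied to meat tenderness, none passed the test of the difference. CAPN1, which encodes the protease mu-calpain, gave changes of 0.43, -0.23, 0.18, -0.19 and 0.50 in control and 0.40, -0.05, 0.00, 0.39 and -0.06 in treated animals, and the difference was -0.00 ± 0.19 with an interval of -0.40 to 0.40. CAST, calpastatin, fell by 0.79 ± 0.19 in control and by 0.52 ± 0.19 in treated muscle, and was kept with a difference of 0.26 ± 0.27. CAPN3, the muscle calpain that binds titin, fell by 1.84 ± 0.38 and by 1.42 ± 0.38 (difference 0.42 ± 0.54, interval -0.72 to 1.55). CAPN2, the large subunit of m-calpain, gave 0.09 ± 0.19 and -0.13 ± 0.19. The list of calpains, cathepsins and caspases had medians of 0.04 and -0.15, with 4 of 26 kept. TRIM63, the ligase MuRF1, fell by 1.20 ± 0.36 in control and gave -0.77 ± 0.36 in treated muscle, and MSTN, the growth inhibitor myostatin, had a difference of 1.15 ± 1.32, too wide to be placed. The MSTN probe was not well above background at day 14 in K8, K9, DE29 and DE32. GAPDH and ACTB, often used as reference genes, had differences of 0.60 ± 0.29 and -0.26 ± 0.37, and the 20 reference genes had a median difference of -0.01.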

How the data were processed

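Bovine neck muscle RNA labelled with Cy3 was hybridised to 20 Agilent arrays of 1 colour. Per the file headers, Feature Extraction 9.5.1.1 made the deposited intensity values (background-subtracted, detrended signal per spot), together with a mark for spots above background, saturated or outlying. The deposited series table holds normalised intensities, which were taken to the log2 scale here and served as an alternative. Per the submitters' processing notes R 2.11.1 was used, and how the authors normalised the table is not given in the sources used here.

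Control spots (1417) and outlier spots (935 over all arrays) were left out. log2 signals were centred on the 75th percentile of each array and spots of a probe averaged. The 15437 of 21475 probes well above background on at least 5 arrays were fitted with limma 3.58.1 (R 4.3.3) to 4 group means, with adjustment by Benjamini-Hochberg at 0.05; 10 probes lacked a value on some array. The difference was treated (day 14 minus day 0) minus control (day 14 minus day 0). Arrays are scaled intensities, so their number, 5 per group, limits precision. Gene names came from the gene number (9498 probes), an accession (3348), the description (3216) or the symbol (393) in the files, matched to the RefSeq gene table; 279 probes with conflicting names and 4741 others stayed unnamed. No probe sequence or genome was used here.

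Genes were named by a rule: the 10 smallest p of the difference in each direction, the 10 largest rises and falls, the 10 highest and lowest in treated muscle, the 2 members of each list with the smallest p, and a set of meat and hormone genes; 1 probe per gene, the brightest. Genes, lists and this comparison were chosen with earlier results of these data known. Titles give the same animal number at both days, which pairs the samples; deviations of same-animal arrays correlated between -0.148 and 0.281 (median 0.0519). Within a group each array is a different animal, so p-values and SEs of the main fit measure the spread between such arrays. The main fit does not use the pairing, and the paired fit is given as an alternative. The script for the fit was tested on simulated data. Alternatives covered scaling, background, filters, array weights, animal, slide and session blocks, and each animal left out; leaving out K10 and DE27 together was chosen after seeing the data. Python 3.11.15, pandas 2.3.3 and scipy 1.17.1 were used for summaries.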

Additional observations from a re-analysis of the deposited data

Results flagged for a closer look

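In 21 of the 298 groups of 5 animals examined, 1 animal's storage change lay far from the other 4; chance flags about 1 in 20 groups. DE27 accounted for 8 of these. It was high for MAFG (1.85), LOC514503 (3.20), FKBP5 (3.58), ATP5PO (3.08, an ATP synthase subunit, the other treated animals lying between -1.24 and -0.53), PSMA3 (1.32, a proteasome subunit), GABARAP (1.78, an autophagy protein) and KLHL41 (1.82, a sarcomere protein), and low for IRF8 (-1.23, a macrophage transcription factor). The correlation of DE27's change with the mean of the other 9 animals, 0.232, was itself far from those of the other treated animals. Whether this belongs to the animal or to its day 0 array on slide 6 was not tested.

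Other treated animals that stood apart were DE30 for ASIP (1.73) and ANGPTL4 (0.66), DE32 for BGN (1.71) and DE29 for HBB (2.72), the beta-globin gene. Among control animals K10 stood apart for PXDC1 (-0.66) and PRDX4 (-0.75), and K3 for NACC2 (4.46) and FASN (1.27), the fatty acid synthase. K8 stood apart for GABRA3 (2.37) and CAPN2 (-0.61). K9 did so for TEF (-0.97), a clock output factor, and TNNT3 (-3.99), the fast troponin T, and K6 for SPATA2 (-3.62).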

How the results depend on the processing

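The count of probes with a treatment difference in storage change was 0 under all 24 alternatives, with 139 (normexp) to 856 (array weights) probes at an unadjusted p under 0.05. With animal as a replicate block it was also 0 (smallest adjusted p = 0.997 in limma), and the paired fit gave 5582 storage calls in control, 5049 in treated muscle and 4180 kept probes, so it changed no call of the difference and moved no count by over 1.5 times. With slide as a block there were 1318 storage calls in control and 905 in treated muscle, 2033 for the mean storage change, 552 for the mean treatment difference and 977 kept probes; slide is largely confounded with day. Within scan session 1 (6 arrays) these counts were 0, 0, 554, 10 and 0, and within session 2 (10 arrays) they were 196 in control muscle, 39 for the treatment difference and 1100 kept. Fewer arrays enter these fits. Normexp gave 8612 storage calls in treated muscle and 262 for the treatment difference, and no filter on dim probes gave 9038 in treated muscle and 13258 for the mean change; the cause was not tested. A margin of 0.5 in place of 1 left 223 kept probes. Leaving out each animal in turn gave 3584 (without K9) to 6525 calls in control, 3638 to 6006 in treated muscle, 7266 to 8977 for the mean change, 570 (without DE29; 584 without K9) to 1021 for the treatment difference and 3164 to 4718 kept. Of 3559 values for 149 named genes, 3379 stayed within 1 standard error of the difference, 177 moved further and 3 with an unadjusted p under 0.05 in either fit reversed, all within session 1: ECHS1 to 0.14, BCL6 to -0.57 and MT3 to 0.26. Counting every value whatever its p, the difference of 67 of the 149 genes turned sign under some alternative, and that of 95 turned sign or moved by over 1.5 times when a single animal was left out. Of 875 list medians 860 stayed and 15 moved. Dim probes, and the few saturated ones, limit what a change in signal shows.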

Other observations

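Different probes of a gene sometimes gave opposite storage changes. Of 649 genes with several probes measured in every group, 70 (10.8%) had a probe that rose and another that fell on the mean over treatments, which was used to choose them. The mean storage change of the 2 brightest probes of a gene correlated with r = 0.269 across genes, which are not independent. BMPR1A, a receptor for bone morphogenetic proteins, had a probe at -0.83 in control and -0.79 in treated muscle and another at 2.03 and 2.63. CUX1, a transcription factor, had probes at 1.81 and 2.19, at -1.11 and -1.02, and at 0.72 and 0.70. ACACB, which makes malonyl-CoA in muscle, had 1.82 and 1.58 from one probe and -1.19 and -0.62 from another. These genes were chosen after their values were seen, and where the probes lie in their transcripts was not analysed here.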
